A study of Homo sapiens with 2 samples.

Results

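The 47 genes described here encode the proteasome, the protease that degrades most ubiquitin-tagged proteins, together with its regulators and assembly factors. They were taken by symbol from a table that compares ribosome profiling with RNA sequencing in SW13, an established human adrenal adenocarcinoma line, and all 47 had a row among the 23608 gene rows. Both libraries share 1 treatment: cells in DMEM with 10% FBS were transfected, once 80% confluent, with 5 µg of Add2-Mhrt779 and Add2-Hotair with a lipid reagent, and were harvested 48 hours later. Mhrt is a long non-coding RNA known from heart muscle and Hotair is another long non-coding RNA, and no untransfected culture enters the comparison. RNA sequencing was made from total RNA. Ribosome profiling was made from the RNA fragments that ribosomes protect from nuclease. Each assay had 1 library, so no value below carries a spread between cultures, and no p-value was computed.

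A proteasome is a barrel, the 20S core, closed at its ends by 19S caps. The core stacks rings of alpha subunits (PSMA genes) around rings of beta subunits (PSMB genes), and PSMB5, PSMB6 and PSMB7 carry the protein-cutting sites. Interferon brings in PSMB8, PSMB9 and PSMB10, which replace these catalytic subunits in the immunoproteasome. The cap holds a ring of ATPases (PSMC genes) that unfold substrates and non-ATPase subunits (PSMD genes) that bind ubiquitin chains and remove them. Dedicated chaperones (PSMG genes, POMP, PSMD5, PSMD9 and PSMD10) guide assembly. Because each constitutive core subunit enters the particle in equal number, the level of each mRNA per length and its ribosome occupancy can be set side by side within the complex.

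Proteasome genes share a transcription factor, NFE2L1, which binds antioxidant response elements. The bases just before the annotated start of constitutive core and ATPase genes are shown with the loose letter pattern TGANNNNGC marked. Of the 47 genes, 41 had an entry in the RefSeq promoter table (build GRCh38.p14). The letters TGANNNNGC, on either strand, were found in the 250 bases before the start of 21 of these 41 genes, or 51.2%, against 35.2% of all 35116 promoters. The CCAAT box (CCAAT or ATTGG), which can overlap those letters, was found in 17 of 41 genes, or 41.5%, against 32.01% of all. Repeated entries of a gene were dropped for the 41 but not for the 35116, which were also not limited to protein-coding genes. The differences in these shares were not tested. A match describes the letters, and shows neither an antioxidant response element nor binding. The 6 genes of the core and ATPase ring with a match in the last 120 bases before the start are printed below, 5′ to 3′ on the strand of the gene and ending at the base before the start, with TGANNNNGC matches in capitals.
PSMA3 (chr14:58244723-58244842, plus strand): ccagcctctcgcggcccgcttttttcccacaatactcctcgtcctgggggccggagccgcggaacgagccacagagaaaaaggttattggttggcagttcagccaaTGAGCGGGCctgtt
PSMA5 (chr1:109426449-109426568, minus strand): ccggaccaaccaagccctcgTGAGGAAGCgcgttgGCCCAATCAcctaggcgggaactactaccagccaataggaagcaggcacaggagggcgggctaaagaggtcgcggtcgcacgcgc
PSMB3 (chr17:38752621-38752740, plus strand): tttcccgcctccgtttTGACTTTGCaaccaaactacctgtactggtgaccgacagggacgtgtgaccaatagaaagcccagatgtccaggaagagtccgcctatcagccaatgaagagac
PSMB4 (chr1:151399453-151399572, plus strand): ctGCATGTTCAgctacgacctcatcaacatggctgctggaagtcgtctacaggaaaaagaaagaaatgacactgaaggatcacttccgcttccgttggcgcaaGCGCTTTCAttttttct
PSMB5 (chr14:23035221-23035340, minus strand): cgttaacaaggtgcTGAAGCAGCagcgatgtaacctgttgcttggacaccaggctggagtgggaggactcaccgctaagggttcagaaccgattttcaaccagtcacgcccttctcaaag
PSMC4 (chr19:39971045-39971164, plus strand): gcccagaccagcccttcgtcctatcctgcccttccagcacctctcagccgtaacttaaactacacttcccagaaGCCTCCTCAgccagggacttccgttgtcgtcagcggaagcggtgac

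The 21 genes with a match in the 250 bases had a median of 16.1 FPKM in RNA sequencing, and the 20 without had a median of 15.8 FPKM. The same medians by ribosome profiling were 38.2 and 24.8 FPKM, and this difference was not tested. FPKM, the authors' deposited unit, is a fragment count scaled to transcript length and to the mapped total of the library.

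All 47 genes were above 0 in both libraries, from 2.07 to 132 FPKM in RNA sequencing and from 2.15 to 369 FPKM in ribosome profiling. The median gene of the 47 had 17.1 FPKM by RNA sequencing and 33.7 by ribosome profiling. As deposited, 41 genes had the higher value in ribosome profiling and 6 the lower (PSMB2, PSMB9, PSME3, PSME4, PSMG1 and PSMG3). Ratios below are the log2(FPKM + 1) of ribosome profiling less that of RNA sequencing, minus the median of the 2734 genes with a mean of at least 10 FPKM, called tested genes. On the log2(FPKM + 1) scale that median gene was itself 1.31-fold higher in ribosome profiling. In the deposited ratios, which have no pseudocount, it was 1.33-fold higher. Of the 47 genes, 35 lay above the median gene and 12 below it, where 50% of tested genes lie above by construction and 29.3% of the 10889 rows above 0 in both libraries do. Their median log2 ratio was 0.30, or 1.23-fold above the median gene. PSMC1, PSMA6 and PSMB1 made up the 3 at 2-fold or more above, where 13.1% of tested genes and 4.6% of rows above 0 in both libraries were. None of the 47 was at least 2-fold below, where 19.7% of tested genes and 27.2% of those rows were. Directions near the median gene depend on the length by which ribosome profiling is scaled. With transcript length replaced by coding length, known for 46 of the genes, 28 lay above and 18 below with the longest annotated transcript, and 32 above and 14 below with the shortest, against 34 and 12 of the same 46 as deposited. PSMB9, PSME3 and PSME4 were then at least 2-fold below under both, where 17% (longest) and 16.1% (shortest) of tested coding genes were. At least 2-fold above were 6 (longest) and 8 (shortest) of the 46, against 18.2% of tested coding genes with the longest. PSMC1 was among them under both, and PSMA6 and PSMB1 under neither. The expression filter was passed by 37 of the 47, with a median log2 ratio of 0.49. That median is given for reference only, since the filter removed low genes, whose ratios as deposited were lower.

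**Figure D1:**
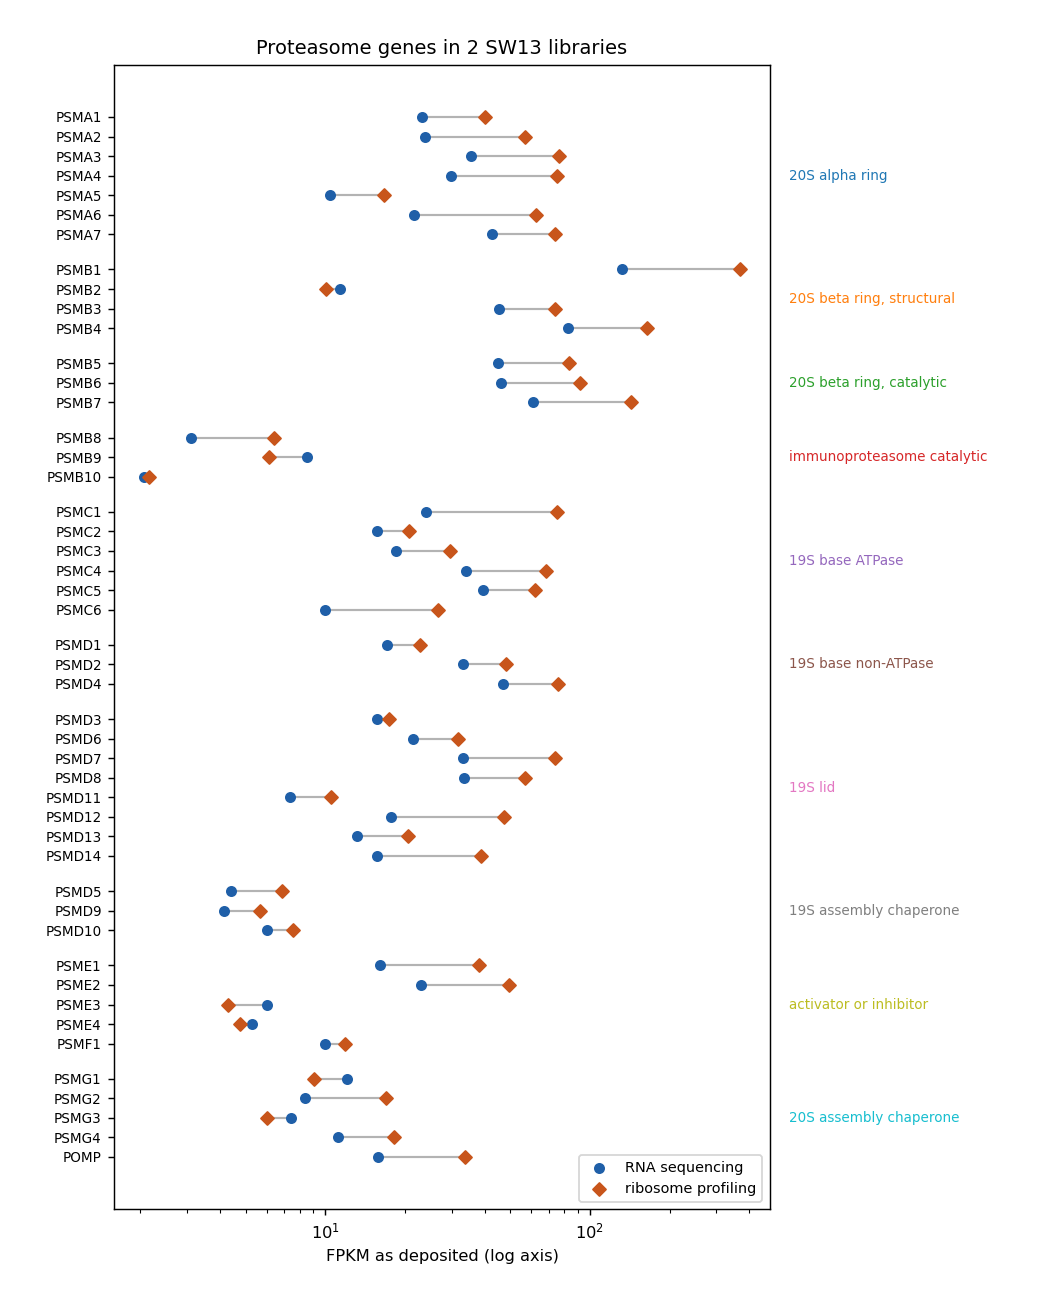
FPKM of each of the 47 genes (log axis) in RNA sequencing (circles) and ribosome profiling (diamonds), grouped by role, with 1 library per assay. The diamond lies to the right of the circle for 41 genes and to the left for 6, and PSMB1 is the highest gene in both libraries at 132 and 369 FPKM.

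The order of the genes was nearly the same in both libraries. Pearson's r of log2(FPKM + 1) between the libraries was 0.96 over the 47 genes (Spearman's rho 0.96), against 0.33 (rho 0.40) over the 2734 tested genes, which include short RNAs with very large values. Of the 2734, 2550 were above 0 in both libraries, as all 47 were, and 2156 had a coding transcript. The part of this makeup in the lower r was not tested. Genes are not independent replicates, and both r values describe these 2 libraries. Within the 47, taken without the expression filter, the ratio as deposited was higher in genes with more RNA. Its r with log2(FPKM + 1) in RNA sequencing was 0.55. With coding length of the longest transcript 12 genes turned below the median gene and 6 above, and r was not computed for those ratios. Over tested genes with a coding transcript the r of the ratio as deposited was -0.28. Those genes passed a filter on the mean of both libraries, so the gene sets are unlike. The part of the filter in the signs was not tested. The ratio and the RNA level share the RNA value, which by itself pulls such an r downward.

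**Figure D2:**
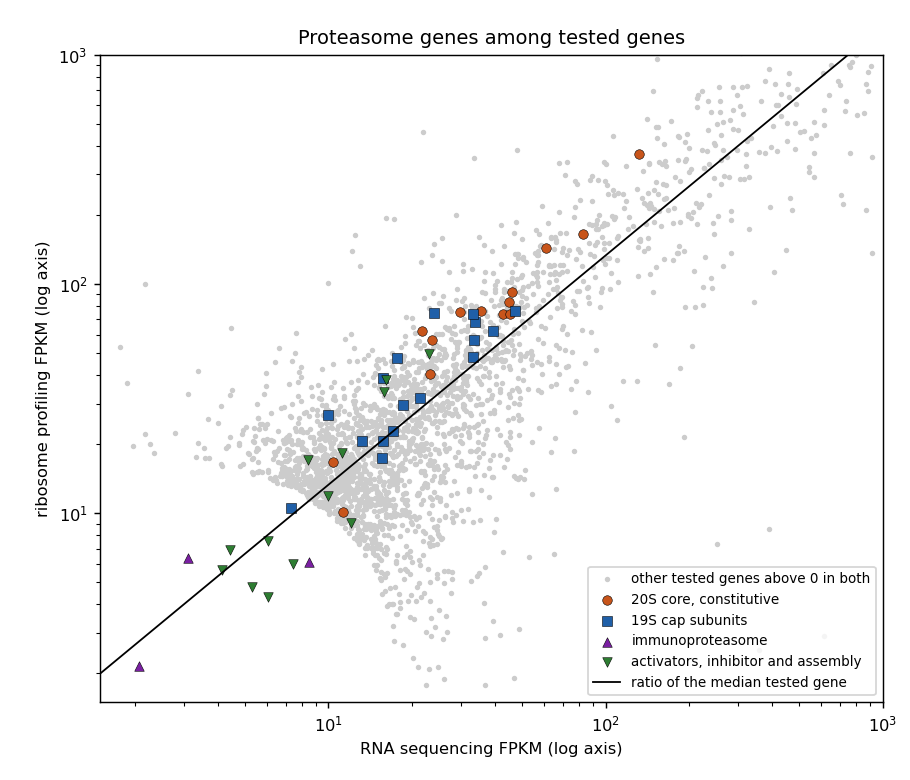
Ribosome profiling FPKM against RNA sequencing FPKM (both log axes) for the proteasome genes by class and for other tested genes (grey), with the ratio of the median tested gene as a line. Most core and cap genes lie just above the line, and the immunoproteasome genes lie at the low end, between 2.07 and 8.52 FPKM in RNA sequencing.

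All 7 genes of the alpha ring, which forms the gated entrance of the core, lay above the median gene, with a median log2 ratio of 0.69 (1.62-fold). With coding length of the longest transcript PSMA7 turned below, at -0.15, and with the shortest all 7 stayed above. PSMA6 had 21.7 FPKM by RNA sequencing and 62.4 by ribosome profiling, 2.13-fold above the median gene. PSMA7, the alpha subunit with the most RNA, had 42.7 and 73.96 FPKM in the same order, 1.31-fold above. The lowest ratio was that of PSMA5, with 10.4 and 16.7 FPKM, 1.19-fold above. In ribosome profiling as deposited the other 6 alpha genes fell between 40.3 and 76.2 FPKM, above PSMA5. FPKM divides by transcript length, and levels by coding length are not given here. Coding sequence is 19.4% of the PSMA5 transcript, and with coding length its log2 ratio was 1.59 (longest) or 1.75 (shortest), above that of PSMA6 at 0.61 or 0.77, so the order of the pair turned. The hg19 position of PSMA6 is chromosome 14, 35761574 to 35786682. PSMA6 lay 0.84 above PSMA5 in the log2 ratio of the authors' deposited table (95% interval -1.54 to 3.23), a difference below the combined standard error of 1.22.

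Among the constitutive beta subunits, PSMB1 and PSMB2, both structural members of the ring, lay at opposite ends as deposited. PSMB1 had 132 FPKM by RNA sequencing and 369 by ribosome profiling, 2.13-fold above the median gene. Its row lies on chromosome 6 from 170844204 to 170862417 in hg19. PSMB2 had 11.3 FPKM and 10.1 FPKM, a log2 ratio of -0.54, and was the only core gene below the median gene as deposited. The direction for PSMB2 depends on the length used: with its ribosome profiling value scaled from transcript to coding length, PSMB2 lay 0.56 to 0.73 above the median gene on the log2 scale, depending on the annotated transcript. Coding sequence makes up 22.3% of the longest annotated PSMB2 transcript. With coding length PSMB1 lay at 0.49 (longest) or 0.66 (shortest), below PSMB2 at 0.56 or 0.73, so the order of the pair turned. PSMB1 lay 1.65 above PSMB2 in the log2 ratio of the authors' deposited table, and the interval of this difference, -0.88 to 4.18, included 0. PSMB4, which completes the ring late in assembly, had 82.8 and 165 FPKM, 1.51-fold above, and PSMB3 had 45.2 and 73.6 FPKM, 1.23-fold above. PSMB3 turned below the median gene with coding length, at -0.33 (longest) and -0.16 (shortest).

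The constitutive catalytic subunits had similar levels, all above the median gene as deposited. With coding length of the longest transcript PSMB6 lay at -0.12 and PSMB7 at 0.12, and with the shortest all 3 lay above. PSMB5, the chymotrypsin-like site, had 44.9 FPKM by RNA sequencing and 83.6 by ribosome profiling, 1.41-fold above the median gene. PSMB6, the caspase-like site, had 46.1 and 91.8 FPKM, 1.51-fold above. PSMB7, the trypsin-like site, had 60.8 and 143.6 FPKM, 1.79-fold above.

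Immunoproteasome genes were present at low levels. PSMB8, which replaces PSMB5, had 3.10 FPKM by RNA sequencing and 6.40 by ribosome profiling, 14.5-fold and 13.1-fold below its constitutive counterpart. PSMB9, which replaces PSMB6, had 8.52 and 6.13 FPKM, 5.41-fold and 15.0-fold below. PSMB10, which replaces PSMB7, had 2.07 and 2.15 FPKM, 29.4-fold and 66.8-fold below. Each constitutive gene was thus the more abundant of its pair in both libraries. Whether the pairs differ in ribosome-to-RNA ratio was not resolved. In the authors' deposited table the constitutive log2 ratio minus that of the counterpart was -0.15 for PSMB5 (interval -2.59 to 2.30), 1.47 for PSMB6 (interval -1.44 to 4.38) and 1.18 for PSMB7 (interval -2.88 to 5.24). The PSMB8 and PSMB9 rows lie on an alternative haplotype sequence of chromosome 6 in hg19, from 4239267 to 4252521 and from 4252711 to 4258398, and reads of this region may have been divided between haplotype copies. The PSMB8 row also overlaps the rows of TAP1 and LOC100507463, so its reads may be shared.

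In the ATPase ring of the cap, 5 of 6 genes lay above the median gene, with a median log2 ratio of 0.43 (1.35-fold). With coding length of the longest transcript 3 of 6 lay above, PSMC3, PSMC4 and PSMC5 having turned below and PSMC2 above, and with the shortest 4 of 6 did. PSMC1 had 24.0 FPKM by RNA sequencing and 74.99 by ribosome profiling, 2.32-fold above, the highest ratio of the 47 genes, on chromosome 14 from 90722894 to 90738966 in hg19. PSMC6 had 9.96 and 26.7 FPKM, 1.93-fold above. PSMC5, the ATPase with the most RNA, had 39.4 and 62.2 FPKM, 1.195-fold above, and PSMC2 had 15.7 and 20.7 FPKM, level with the median gene at a log2 ratio of -0.0077. PSMC1 lay 1.24 above PSMC2 in the log2 ratio of the authors' deposited table, and the interval of this difference, -1.12 to 3.59, included 0.

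The non-ATPase subunits of the cap base had ratios slightly above the median gene as deposited, and all 3 turned below it with coding length, with a median of -0.49 (longest) or -0.33 (shortest). PSMD1 and PSMD2 are the large scaffold proteins that dock ubiquitin shuttles, and PSMD4 is a receptor for ubiquitin chains. PSMD4 had 47.1 FPKM by RNA sequencing and 75.8 by ribosome profiling, 1.22-fold above. PSMD2 had 33.2 and 48.0 FPKM, 1.09-fold above, and PSMD1 had 17.1 and 22.8 FPKM, 1.008-fold above.

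The lid subunits, which clear ubiquitin from substrates, spread more widely. Of the 8 genes, 7 lay above the median gene, with a median log2 ratio of 0.29. With coding length PSMD6 also lay below, at -0.51 (longest) and -0.35 (shortest), and PSMD8 at -0.045 with the longest alone. PSMD14, the deubiquitinase of the lid, had 15.7 FPKM by RNA sequencing and 38.8 by ribosome profiling, 1.82-fold above. Its inactive partner PSMD7 had 33.2 and 73.6 FPKM, 1.67-fold above. PSMD12 had 17.7 and 47.3 FPKM, just short of a doubling at 1.97-fold above. PSMD8, with the most RNA of the lid, had 33.6 and 56.9 FPKM, 1.28-fold above. As deposited, PSMD3 was the single lid gene below the median gene, with 15.6 and 17.4 FPKM and a log2 ratio of -0.24. PSMD11 had the least RNA, at 7.36 and 10.5 FPKM. The difference between PSMD12 and PSMD3 in the authors' deposited table, 1.26 on the log2 scale, had an interval from -1.11 to 3.64.

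Regulators of the core lay on both sides of the median gene. PSME1 and PSME2, the interferon-inducible activator ring, had 16.1 and 38.2 FPKM and 23.0 and 49.6 FPKM in RNA sequencing and ribosome profiling, 1.75-fold and 1.61-fold above the median gene. PSME3, the nuclear activator, had 6.04 and 4.30 FPKM, a log2 ratio of -0.80. PSME4, the activator linked to histone degradation, had 5.31 and 4.77 FPKM, a log2 ratio of -0.52. The inhibitor-like protein PSMF1 had 10.0 and 11.9 FPKM, a log2 ratio of -0.16, and turned above the median gene with coding length, at 1.19 (longest) and 1.14 (shortest). PSME1 lay 1.74 above PSME3 in the authors' deposited table on the log2 scale, with an interval from -0.72 to 4.19 that includes 0.

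The 8 assembly chaperones had a median of 7.93 FPKM by RNA sequencing and 8.30 by ribosome profiling, against 39.1 and 74.6 FPKM for the core and 18.5 and 38.8 FPKM for the cap. Single genes overlapped, POMP lying above PSMA5 and PSMB2 in both libraries. PSMG1 and PSMG2 act as a dimer that builds the alpha ring, and their genes lay on opposite sides of the median gene. PSMG1 had 12.1 FPKM by RNA sequencing and 9.03 by ribosome profiling, a log2 ratio of -0.77, and PSMG2 had 8.42 and 16.98 FPKM, a log2 ratio of 0.54. PSMG3 and PSMG4, the other such dimer, showed the same split, with 7.44 and 6.002 FPKM and a log2 ratio of -0.66 for PSMG3, and 11.2 and 18.2 FPKM and a log2 ratio of 0.27 for PSMG4. With coding length of the longest transcript PSMG3 lay at 0.15, on the same side as PSMG4, and with the shortest at -0.48. The split of the first dimer in the authors' deposited table was 1.43 on the log2 scale with a standard error of 1.45, and neither it nor that of the second dimer exceeded its error. POMP, which matures the beta ring, had 15.9 and 33.7 FPKM, 1.57-fold above. The cap chaperones PSMD5, PSMD9 and PSMD10 ranged from 4.13 to 6.04 FPKM in RNA sequencing and from 5.67 to 7.56 FPKM in ribosome profiling, with log2 ratios between -0.11 and 0.15, all above 0 with coding length. The 31 constitutive core and cap genes had a median log2 ratio of 0.39, with 3 of them below the median gene, and the 16 other genes had a median of -0.058, with 9 below. With coding length this order turned: the longest transcripts put 12 of 30 core and cap genes below (median 0.17) and 6 of 16 others (median 0.21), and the shortest 8 of 30 (median 0.23) and 6 of 16 (median 0.31). The 16 others also had less RNA, with medians of 7.93 FPKM against 24.0 FPKM, and the part of that in the ratios was not tested.

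None of the 47 genes was called significant in the authors' deposited table, where 1.3% of the 4849 rows with the status OK were. The deposited unadjusted p-value was below 0.05 for none of the 41 proteasome genes with the status OK in the authors' deposited table, against 14.2% of such rows. The lowest q-value of the 41 in the authors' deposited table was 0.37, for PSMC4. Deposited standard errors ranged from 0.53 to 1.86 with a median of 0.86, so no single proteasome gene had a deposited interval that left out 0.

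**Figure D3:**
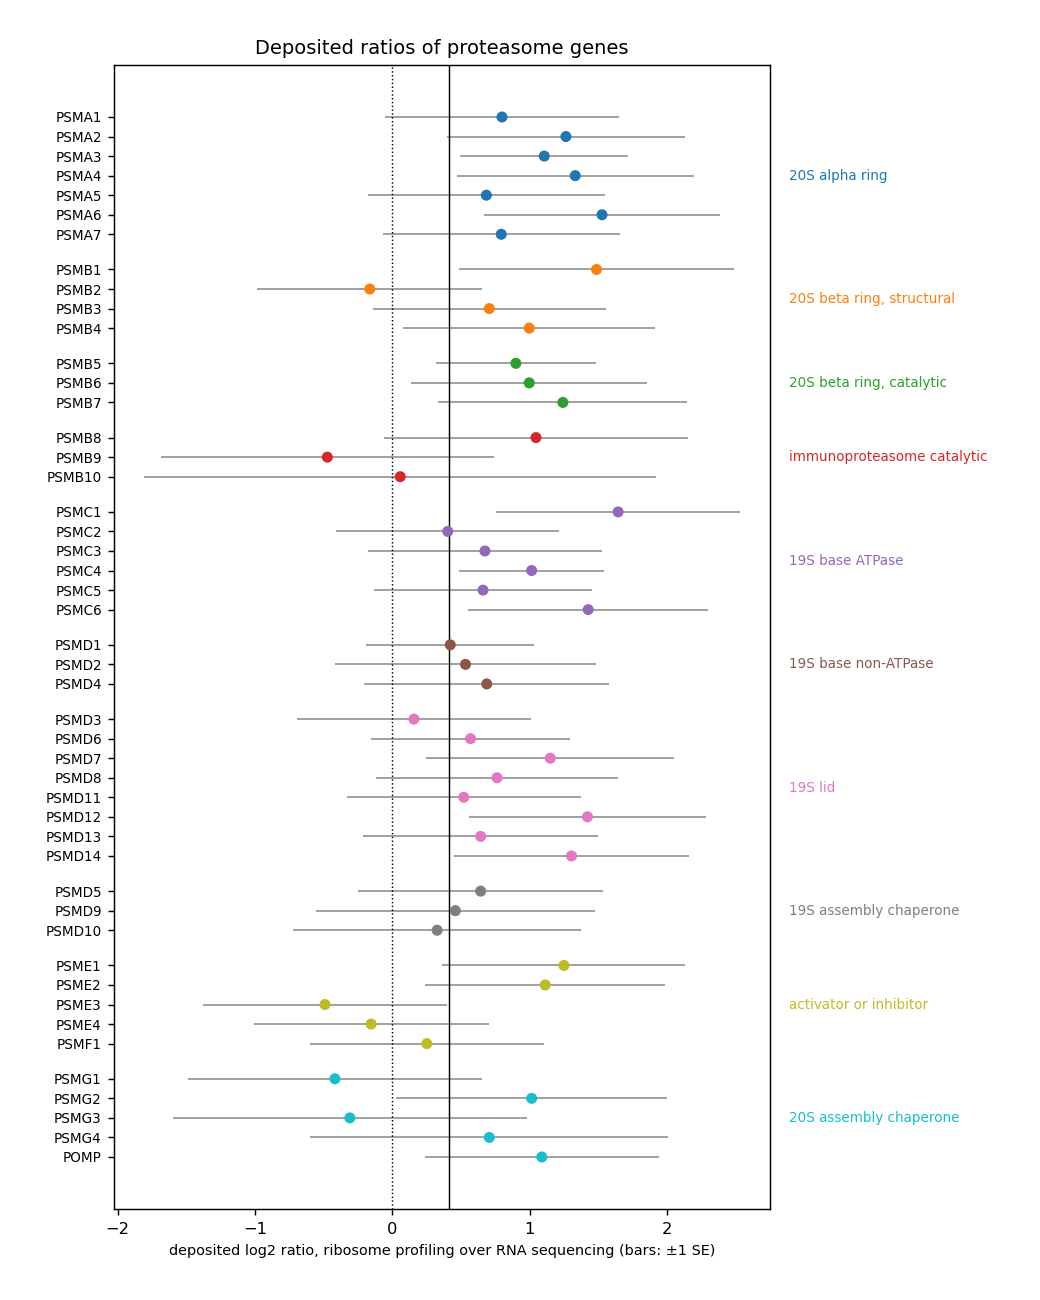
Deposited log2 ratio (ribosome profiling against RNA sequencing, from the authors' deposited table) for each of the 47 genes with bars of 1 standard error of their model, coloured by role. The dotted line is 0 and the solid line is the median deposited log2 ratio of tested genes, 0.41, with no pseudocount. All but 6 points lie right of 0, and the bars of neighbouring genes overlap widely.

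The fragments behind these values could be recovered in part. Where both values of a row were above 0, the deposited ratio was often a whole-number fraction times 1.56, the worth of a fragment in ribosome profiling relative to RNA sequencing. A fraction of whole numbers up to 100 matched within a relative tolerance of 4e-06 in 53.2% of 10887 rows, against 0.569% when the step was set 1% too high. Among the 47 genes, 23 had such a pair, and the true counts were read as that pair or a whole multiple of it. A pair can also match without being the counts. PSMD10 had 66 RNA sequencing fragments in its pair at 6.04 FPKM and a transcript of 1546 bases. PSMA6 had 32 at 21.7 FPKM and 1029 bases, beside which the pair of PSMD10 is too large. PSMB10 had the pair 3 and 2 and PSMB9 the pair 13 and 6 (RNA sequencing first).

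For 16 genes the larger number of the pair was at least 20, and an exact (Clopper-Pearson) 95% interval of ribosome profiling fragments per RNA sequencing fragment was set from the pair. These intervals cover counting error only, and a whole multiple would narrow them. They hold only where the pair reflects the true counts, which is doubtful for PSMD10, one of the 16. The median tested gene, in deposited ratios, had 0.852 ribosome profiling fragments per RNA sequencing fragment. PSMA6 had the pair 32 and 59, or 1.84 (1.18 to 2.93). PSMA2 had 54 and 83, or 1.54 (1.08 to 2.21), and PSMD14 had 43 and 68, or 1.58 (1.06 to 2.37). PSMC3 had 46 and 47, or 1.02 (0.666 to 1.57), which spans the median gene. The interval lay wholly above the median gene for 7 of the 16 (PSMA2, PSMA6, PSMB1, PSMC6, PSMD14, PSME1 and POMP), against 23.2% of 643 tested genes with such a pair. It lay wholly below for none of the 16, against 21.2%.

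**Figure D4:**
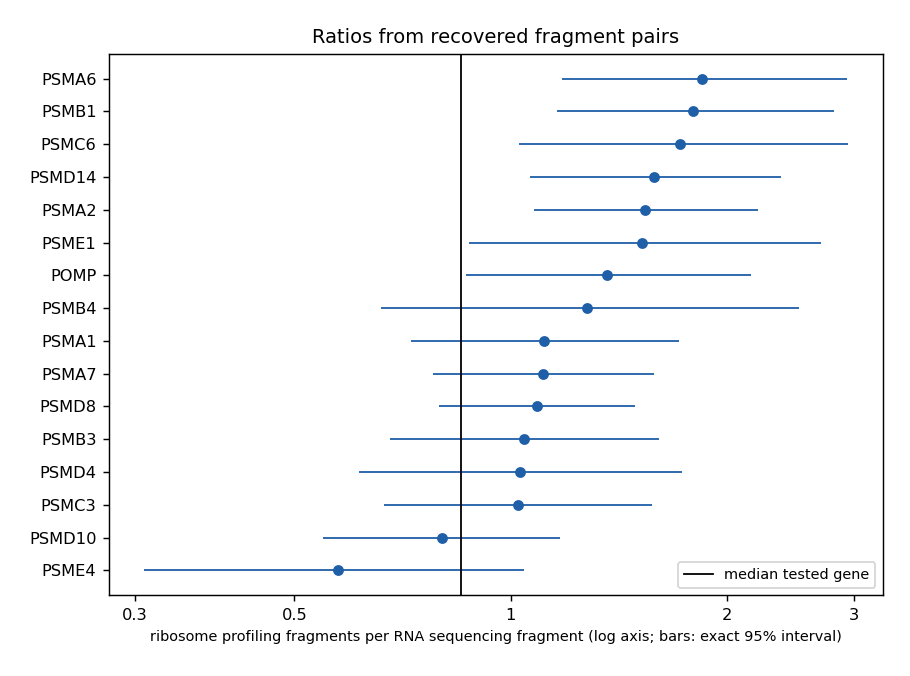
Ribosome profiling fragments per RNA sequencing fragment (log axis) with exact 95% intervals for the 16 genes with a recovered pair of sufficient size, sorted by ratio, and the median tested gene at 0.852 as a line. The intervals of 7 genes lie right of the line and 9 intervals cross it, PSME4 with the lowest ratio among them. The pair of PSMD10, also among those 9, is doubtful.

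Levels within the core were uneven although its subunits enter the particle in equal number. Over the 14 constitutive core genes, levels spanned 12.7-fold in RNA sequencing, from PSMA5 to PSMB1, and 36.5-fold in ribosome profiling, from PSMB2 to PSMB1. The SD of log2(FPKM + 1) was 0.98 in RNA sequencing and 1.25 in ribosome profiling, a difference of 0.28. The sign of this difference turned when ribosome profiling values were scaled to coding length (-0.012 or -0.18 over 13 genes, by annotated transcript), and without the highest and lowest gene in each library it was 0.085. The 17 cap subunits had SDs of 0.70 and 0.83 in RNA sequencing and ribosome profiling. These lay between the alpha ring, at 0.62 and 0.77, and the constitutive beta ring, at 1.06 and 1.56. With coding length the core SD in ribosome profiling was 0.94 (longest) or 0.77 (shortest), and no such SD is given for the cap. For comparison, the 8 subunits of the TRiC chaperonin had SDs of 0.32 and 0.25. The 9 genes of the COP9 signalosome, a complex related to the lid, had SDs of 0.80 and 1.22. COPS7B, at 2.44 FPKM, was the lowest of the 9 in ribosome profiling, where they spanned 24.4-fold. Equal numbers in the particle are stated here for the core alone. Differences between complexes were not tested.

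**Figure D5:**
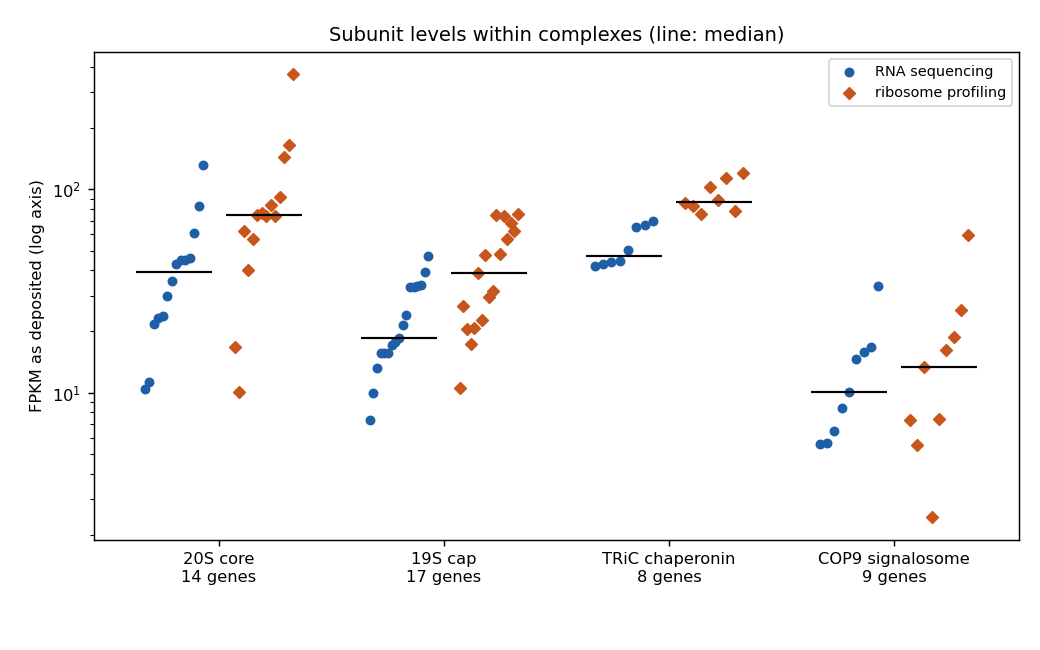
FPKM (log axis) of each subunit gene in RNA sequencing (circles) and ribosome profiling (diamonds) for the 20S core, the 19S cap and the comparison complexes, with the median of each as a line. The core genes run from 10.1 to 369 FPKM in ribosome profiling, and the TRiC genes from 75.5 to 121 FPKM.

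Other genes of the pathway came from a list of ubiquitin, shuttle, segregase and regulatory genes with 39 rows. Over all 39 rows 12 lay above the median gene and 27 below, with 2 at least 2-fold above and 8 at least 2-fold below. Their median log2 ratio was -0.39, and rows listed at 0 in both libraries count among those below. Of the 10889 rows above 0 in both libraries, 29.3% lay above, 4.6% at least 2-fold above and 27.2% at least 2-fold below. The count of the list above the median gene is near that share. Of the 19 that passed the expression filter, 9 lay above the median gene and 10 below, with a median log2 ratio of -0.0094. Of these, 1 was at least 2-fold above and 2 at least 2-fold below, against 13.1% and 19.7% of tested genes. UBB, a ubiquitin gene, was the most abundant, with 734 FPKM by RNA sequencing and 1220 by ribosome profiling. SHFM1, a small lid protein outside the 47, had 107 and 440.5 FPKM, 3.13-fold above. NPLOC4 and FAF1, cofactors of the segregase VCP, were the 2 lowest tested genes, with 14.9 and 8.49 FPKM and 13.7 and 7.27 FPKM, 2.19-fold and 2.34-fold below. VCP itself had 35.9 and 92.02 FPKM, 1.92-fold above. NFE2L1, the transcription factor of proteasome genes, had 16.0 and 15.6 FPKM, a log2 ratio of -0.43. Its small MAF partners, each below the expression filter, had low ribosome profiling values as deposited. MAFG had 8.60 and 0.715 FPKM, the lowest ratio of the list, and MAFF and MAFK had 1.93 and 1.37 FPKM in ribosome profiling. No coding-length values are given for the pathway list, so the part of transcript length in its ratios was not tested. None of the list was called in the authors' deposited table, where MAFG had the lowest q-value of 0.149. The tissue-restricted core genes PSMA8 (testis) and PSMB11 (thymus) were listed at 0 in both libraries.

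The label of the cells was set against markers. All 8 adrenal cortex genes checked (among them NR5A1, STAR and CYP11A1) were listed at 0 in both libraries, and of 5 adrenal medulla genes only CHGB was above 0, at 1.36 and 3.18 FPKM. Among blood cell genes, PTPRC and CD3E were listed at 0 in both libraries, CD68 had 17.6 and 14.6 FPKM, and HBB had 691 and 766 FPKM. The part of these in the proteasome values was not tested.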

How the data were processed

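RNA sequencing and ribosome profiling of SW13 cells were compared, with 1 library each and reads of 50 nt from both ends. The authors deposited an FPKM value per gene and library and their own log2 ratio, test statistic (a score), p-value and q-value. Per the submitters' processing notes, the tools included bedtools 2.16.1, SAMtools 0.1.18, Bowtie2 2.0.0.6 and TopHat2 2.0.8b, and the builds hg19 and mm10 are named. The sources used here name neither the program that wrote the table nor its annotation or strand setting. The deposited log2 column, typed as a score because it marks divisions by 0 with a very large number, equalled the log2 of the FPKM ratio in all 47 proteasome rows within 7.54e-06.

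The 47 genes and the pathway and marker lists were chosen with earlier results of these data known. Ratios used a pseudocount of 1 FPKM, which understates changes of low genes, and were centred on tested genes, which have a mean of at least 10 FPKM and are not marked FAIL or HIDATA. Genes described singly were, in each role, those of highest mean FPKM, highest ratio and lowest ratio, all catalytic subunits, and every gene at least 2-fold from the median gene. From the pathway list these were the 3 of highest mean FPKM, the highest and lowest ratio, and NFE2L1. Some genes of these lists are not reported here. Other proteasome genes are given by value, and NPLOC4, VCP, MAFG, MAFF, MAFK, PSMA8 and PSMB11 were chosen after their values were seen. Standard errors were obtained by dividing each deposited log2 ratio by its statistic, and intervals of differences assume independent errors. They come from the authors' model and say nothing of variation among cultures. FPKM divides by transcript length, whereas footprints cover coding sequence, so long untranslated regions lower ribosome profiling FPKM. Coding lengths came from GENCODE release 29, a later annotation than the table's, for 46 of the 47 genes and for 2028 of 2029 tested protein-coding genes. Fragment recovery was checked on simulated data, where 100% of 1000 simulated pairs were recovered up to a common factor. That check does not measure how often a real row matches a pair that is not its counts. Of the 47 genes, 9 overlap another row, and such rows may share reads. Coordinates are hg19 except the promoters. Python 3.11.15, pandas 2.3.3 and scipy 1.17.1 were used. Each group holds 1 library, so none was left out in turn.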

Additional observations from a re-analysis of the deposited data

How the results depend on the processing

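The median log2 ratio of tested proteasome genes was above 0 in all 11 alternatives, and none of them put a proteasome gene that passed its filter at least 2-fold below the median gene. Among all 46 genes with a coding length, PSMB9, PSME3 and PSME4 were at least 2-fold below with coding lengths, 12 genes turned below the median gene and 6 above with the longest transcript, and 7 and 5 with the shortest. Its size was 0.49, against 0.85 with a filter of 1 FPKM, 0.98 with no filter and 0.88 without centring, which shifts every gene by 0.39. It was 0.26 with ribosome profiling scaled to the coding length of the longest transcript, a setting chosen after seeing the data. The count of genes at least 2-fold above was 3 of 37, against 13.1% of tested genes. It was 5 of 37 with a pseudocount of 0.1 and 14 of 37 without centring. With a filter of 1 FPKM it was 20 of 47, with no filter 23 of 47, and with a filter of 30 FPKM 1 of 21. With coding length it was 6 of 36 (longest transcript), against 18.2% of tested coding genes, and 7 of 36 (shortest). The shares of all genes under the other settings are not given here. Over all rows above 0 in both libraries the median ratio was -0.47, so a wider filter lowers the centre. The difference in spread of the 14 core genes, 0.28, reversed to -0.012 and -0.18 with those coding lengths. The other 40 values under alternatives, among them the levels of the catalytic pairs with pseudocounts of 0.1 and 5 and the absence of deposited calls, stayed on the same side of their limits. No paired analysis was possible because each group holds 1 library. Depth limits the low genes: the recovered pairs of PSMB9 and PSMB10 hold at most 13 fragments in a library unless multiplied, and the deposited standard error of PSMB10 is 1.86.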

Other observations

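Ratios that fall on whole-number steps were a property of the whole table, not of proteasome genes. The most frequent deposited ratio, 1.56, was shared by 378 rows, and it is the value a gene takes with equal fragment numbers in both libraries. Several proteasome genes sat on simple steps: PSMD13 and PSMD5 at 1 to 1, PSMC1 at 1 to 2 and PSMD3 at 7 to 5 (RNA sequencing first).

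A cytosine followed by 4 pyrimidines at the annotated start, the letters that open 5-prime TOP mRNAs, was found at none of the 41 proteasome genes in the promoter table, against 4.07% of all 35116 promoters. The 35116 were not limited to protein-coding genes, and the difference was not tested. Annotated starts need not be the starts used in SW13 cells.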
